A study of Mus musculus with 4 samples.

Results

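The genes described here are the ligands, receptors, antagonists, transcription factors and targets of the Wnt pathway in cultured mouse keratinocytes. A list of 50 Wnt genes was taken by name, and the 32 with a mean expression of at least 1 FPKM over all libraries form the set that was tested, out of 11350 genes of the table that reach this level. FPKM is a fragment count scaled to transcript length and to the mapped fragments of the library, so levels of different genes can be set side by side. RNA came from primary epidermal keratinocytes of newborn mice, grown at passage 0 in low-calcium E-media on growth-arrested J2-3T3 fibroblasts that were taken off before extraction, and the labels name no further treatment. Each genotype, Control and Ovol2-deficient, had 2 libraries. The labels do not say whether the libraries came from separate animals, so p-values measure the spread between these libraries, which may be technical. They name the mutant samples by a code they do not explain, and the strain, the allele, the way Ovol2 was altered and the cells a deletion would act in are not given in the sources used here.

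Wnt proteins are lipid-modified secreted factors. In the canonical branch they bind a Frizzled receptor and Lrp5 or Lrp6, which halts the destruction of beta-catenin, and beta-catenin then joins Tcf and Lef factors on target genes, among them genes that feed back to restrain the signal. Other branches act through Ror, Ryk and planar polarity proteins. In skin the pathway is known for the formation and cycling of hair follicles and for the self-renewal of basal keratinocytes.

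Ovol2, the zinc-finger factor named in the genotype label, stood at 2.68 and 2.14 FPKM in the Control libraries and at 1.45 and 0.941 in the Ovol2-deficient ones, which was lower in both but did not pass the test (limma, adjusted p = 0.129), so the label is not checked by it. Reads outside the altered stretch, which no source used here locates, would not report on the alteration. Counts in the authors' deposited table are normalized means over the libraries, and total counts per library were not analysed here, so the depth of each is unknown. Keratinocyte markers (12 of 12 at 1 FPKM or more) summed to 7643 to 8184 FPKM in Control and 6328 to 7346 in Ovol2-deficient libraries, high in both groups as the label says, with 7 of the 12 lower and 0 higher in both mutants (median log2 fold change -0.25). Some other lists of cell types and states moved with the genotype, but not all did. Of 5 tested hair follicle markers 1 was higher and 1 lower in both mutants. Of 2 tested immune markers 0 were higher and 0 lower, and of 2 tested endothelial markers 0 were higher and 1 was lower. Of 19 fibroblast or feeder markers at 1 FPKM or more, 18 were higher in both Ovol2-deficient libraries. All 22 of that list summed to 697 to 724 FPKM in Control and 938 to 1024 in Ovol2-deficient libraries. All 6 melanocyte markers at 1 FPKM or more were higher in both mutants as well. The 10 listed melanocyte markers summed to 63.2 to 69.1 FPKM in Control against 85.8 to 92.4. Of the rest of these, Sox10 and Kit were higher in both mutants, and Ednrb and Slc45a2 overlapped. Pdgfra, 1 of the 18, reached a mean of 1 FPKM only through the mutants (0.965 in Control and 1.63 in mutants). All 14 cell cycle genes were lower in both (summed 577 to 634 against 391 to 445 FPKM), and 8 of 13 differentiation genes were higher in both. Over all tested genes 24% were lower and 24.1% higher in both mutants. Of the 22 fibroblast markers Lum was under 0.1 FPKM in every library, as were Ptprc, Cd3e and Cd207 of the immune list and Cdh5 and Cldn5 of the endothelial list. Other members of these lists were measured: Lyz2 and Cd68 (immune) had means of 8.80 and 11.1 FPKM, and Pecam1 and Kdr (endothelial) 1.84 and 1.79. Bulk RNA cannot tell fewer cells of a type from less RNA per cell, and the part these shifts have in the Wnt values was not tested.

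In the Ovol2-deficient libraries 1 of the 32 tested Wnt genes fell, the ligand Wnt10a. Of the others 0 rose, and 31 failed to reach the threshold. The test was limma on log2(FPKM + 1) over all 11350 genes, at an adjusted p under 0.05, and it called 0.511% of all genes lower and 0.837% higher. At an unadjusted p under 0.05, 6 of the Wnt genes lay lower and 0 higher, where all tested genes gave 7.94% and 9.49%. In the authors' deposited table, which calls 4.43% of its genes, 2.1% lower and 2.33% higher, 1 of the 35 listed genes with an adjusted p was lower, again Wnt10a, and 0 were higher. On the log2 scale 24 of the 32 lay within 0.25 of 0, as did 76.9% of all tested genes. The median log2 fold change of the 32 was -0.10, against -0.0014 for all tested genes, and 24 of them lay below 0, against 50.4% of all tested genes. Over all 50 listed genes, with the 18 untested ones included, the median was nearer to 0, at -0.039. Both Ovol2-deficient values lay below both Control values for 14 of the 32 (43.8%, against 24% of all tested genes) and above them for 4 (12.5%, against 24.1%). These shares describe a chosen list and were not tested.

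**Figure D1:**
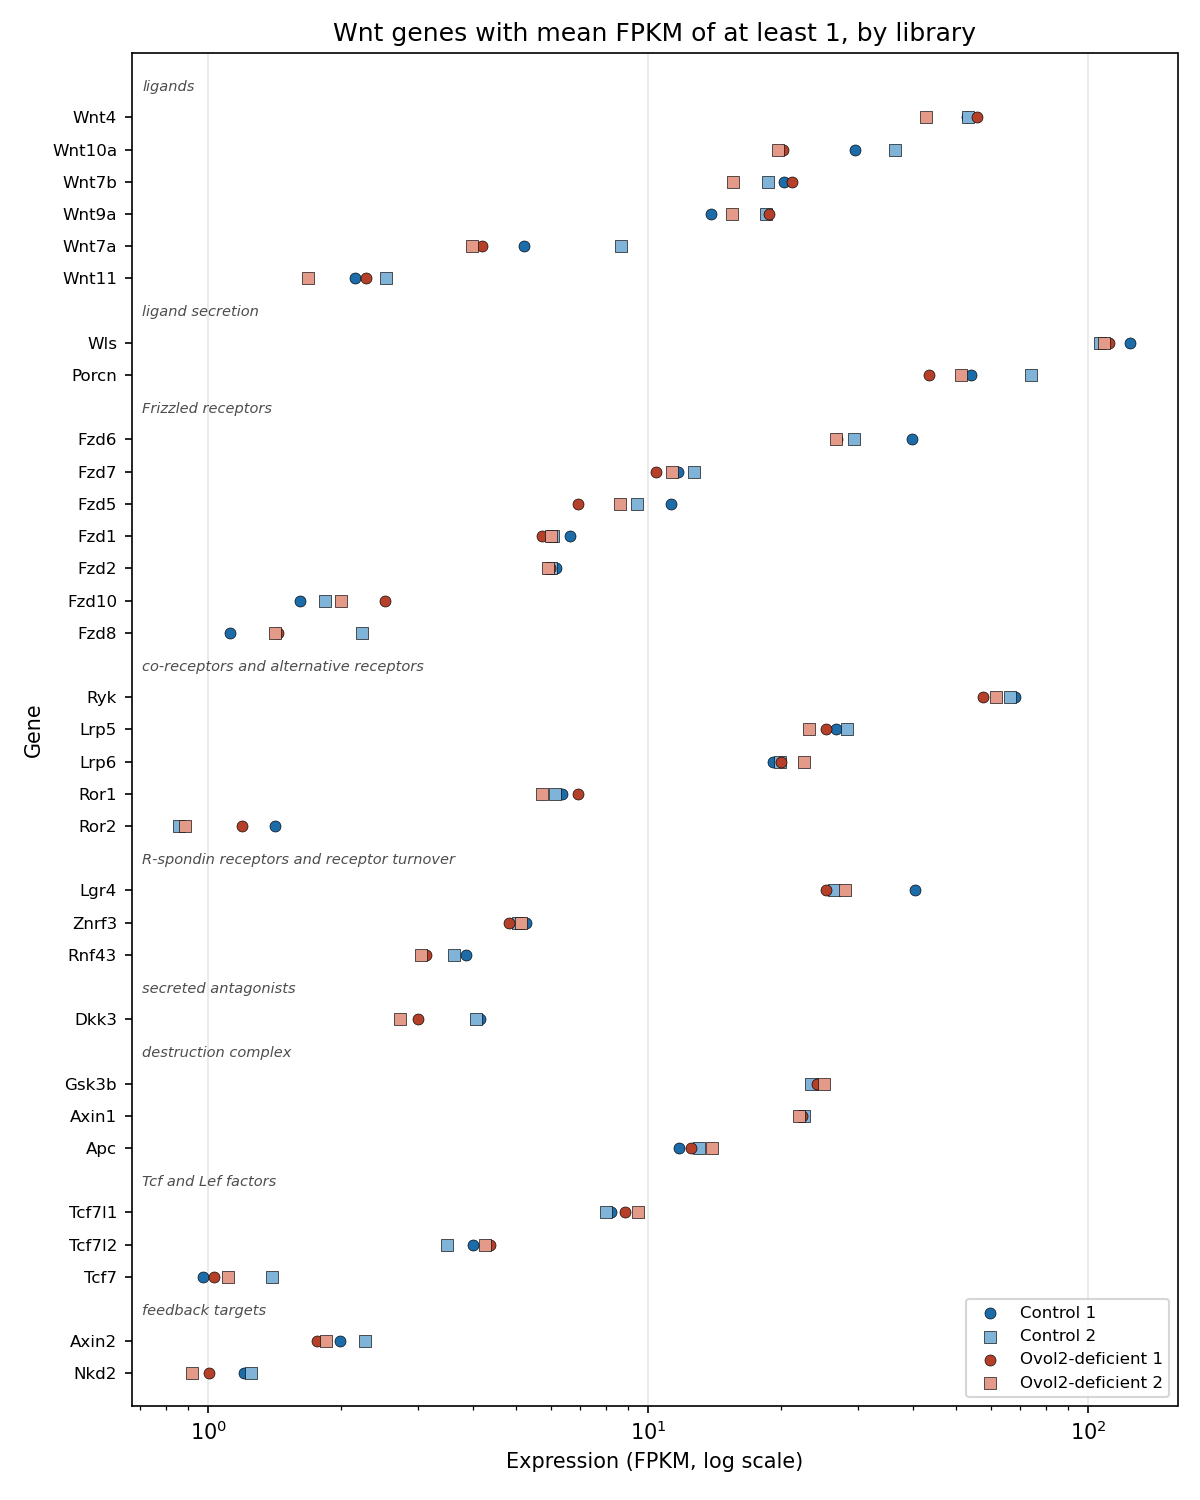
Expression in FPKM (horizontal log axis) of the 32 Wnt genes with a mean of at least 1, grouped by role; each point is 1 library, blue for Control and red for Ovol2-deficient, circles for library 1 and squares for library 2. The Wnt10a points of the groups are apart (29.4 and 36.5 against 20.2 and 19.7). For Wnt7a, Fzd8, Ror2, Lgr4, Tcf7, Porcn and Fzd6 the 2 Control libraries are far from each other.

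The ligand message of these cells came mostly from 4 genes. Wnt4, Wnt10a, Wnt7b and Wnt9a together made up 90.5% to 93.1% of the summed FPKM of the 12 listed ligands in every library. Wnt4, a ligand made by basal epidermal cells, was the highest, at 53.1 and 53.3 FPKM in Control and 56.0 and 42.7 in Ovol2-deficient libraries, and its groups overlapped (log2 fold change -0.12, 95% interval -0.43 to 0.19, adjusted p = 0.715 in limma). Wnt7b, at 20.3 and 18.7 against 21.2 and 15.6, and Wnt9a, at 13.9 and 18.5 against 18.9 and 15.5, overlapped as well. In Control the order was Wnt4, Wnt10a, Wnt7b and Wnt9a with no overlap between neighbours, while in the mutants the values of Wnt7b overlapped those of both Wnt10a and Wnt9a.

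Wnt10a, a canonical ligand needed for teeth, hair and other skin appendages, stood at 29.4 and 36.5 FPKM in Control libraries and at 20.2 and 19.7 in Ovol2-deficient ones. Both Ovol2-deficient libraries were below both Controls and close to each other, while the Controls differed more. Mean Wnt10a was 33.0 ± 4.98 FPKM in Control and 19.98 ± 0.3498 in mutants (SD, n = 2 each), 1.65-fold higher in Control, with a log2 fold change of -0.69 (SE 0.12, 95% interval -0.97 to -0.41, adjusted p = 0.0482 in limma). The authors' deposited table gave Wnt10a a log2 fold change of -0.61 with an adjusted p of 0.00111, at a mean normalized count of 639. The call lies at the edge of the threshold. It was lost in limma under upper-quartile scaling (adjusted p = 0.0614), quantile normalization (0.0740), without the variance trend (0.0730) and with no filter on low values (0.229), and without Control 2 (0.0571), Ovol2-deficient 1 (0.211) or Ovol2-deficient 2 (0.221), while its log2 fold change stayed between -0.84 and -0.54 with any library left out. The summed FPKM of the 12 ligands was 133.8 ± 9.44 in Control and 113.4 ± 16.2 in mutants (SD, n = 2 each), where the library values of 127.1 and 140.4 in Control were both above 124.9 and 101.996. Without Wnt10a the sums of the other 11 overlapped, at 97.6 and 103.95 against 104.7 and 82.3. As Wnt10a was left out for its call on these same values, the difference had to shrink, and nothing is concluded from the overlap. The share of Wnt10a in the ligand sum was 23.2% and 25.97% in Control and 16.2% and 19.3% in Ovol2-deficient libraries.

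**Figure D2:**
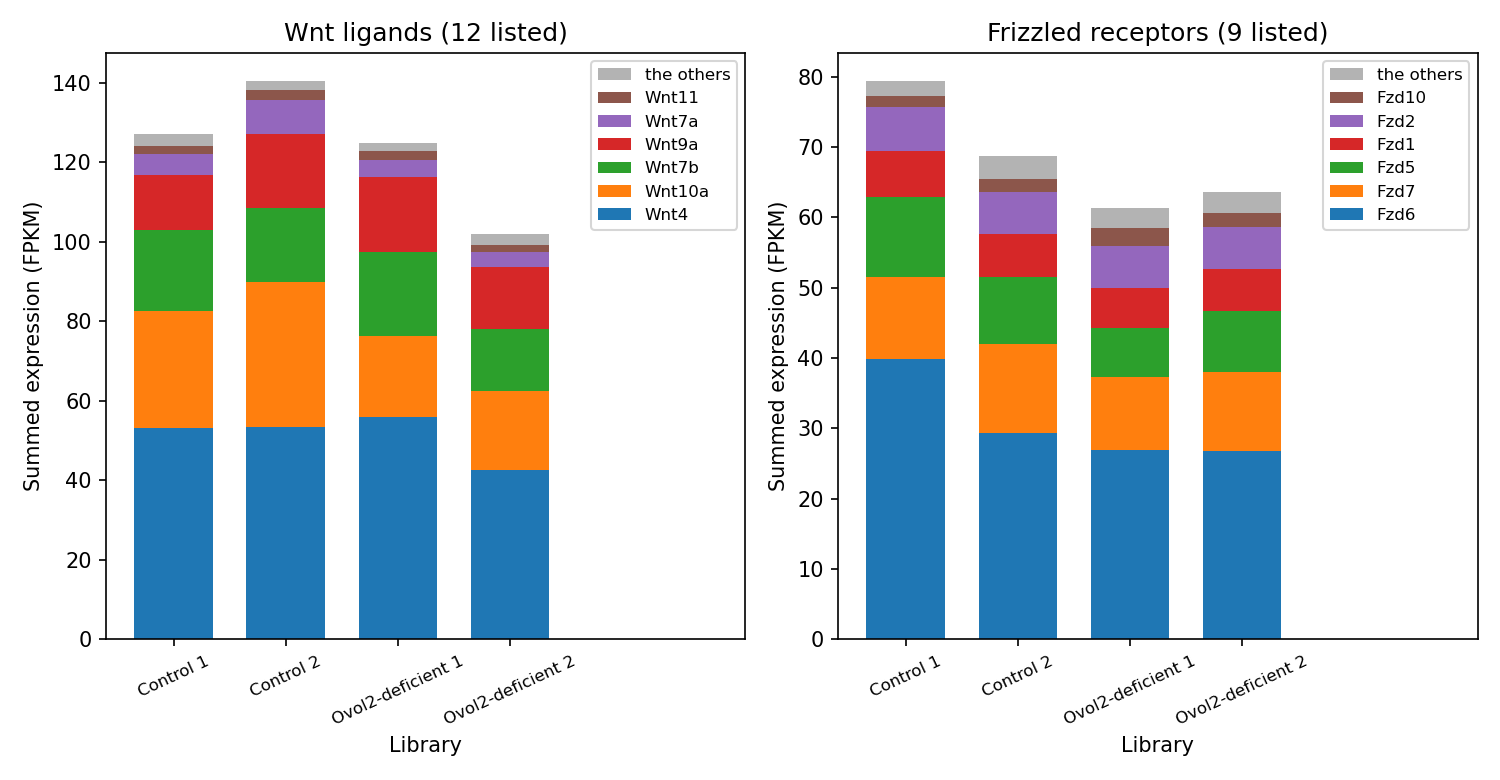
Summed FPKM (vertical axis, from 0) of the 12 listed Wnt ligands (left) and the 9 listed Frizzled receptors (right), 1 stacked bar per library, with the 6 highest genes of each family in colour and the others in grey. The Wnt10a segment is shorter in both Ovol2-deficient bars, and Fzd6 is the largest Frizzled segment in all 4.

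Wnt7a, a ligand of both canonical and other branches, showed a log2 fold change nearly as large. Its values were 5.22 and 8.69 FPKM in Control and 4.18 and 3.97 in Ovol2-deficient libraries, so the groups did not overlap, but the Controls differed from each other by more than the lower of them did from the mutants. The log2 fold change was -0.61 (SE 0.20, adjusted p = 0.180 in limma), with an adjusted p of 0.0535 in the authors' deposited table. Wnt7a depended on Control 1: without it the log2 fold change was -0.93 and passed in limma (adjusted p = 0.0145), and without Control 2 it was -0.30. Wnt11, a ligand of the noncanonical branch, was low and overlapping (2.15 and 2.53 against 2.28 and 1.68).

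The other 6 listed ligands had means under 1 FPKM and were not tested. Wnt5a, the best known noncanonical ligand, lay just under the limit, at 0.917 and 0.543 FPKM in Control and 0.959 and 1.28 in Ovol2-deficient libraries. Wnt10b, the closest relative of Wnt10a, stood at 0.675 and 0.608 against 0.624 and 0.623, and Wnt6 at 0.715 and 0.613 against 0.260 and 0.624. Wnt3 was at 0.274 and 0.270 against 0.118 and 0.0835, on a mean normalized count of only 8.70 in the authors' deposited table, and Wnt3a at 0.385 and 0.157 against 0.201 and 0.142. Wnt5b had 0 FPKM in the Controls and 0.0308 and 0.0329 in the mutants.

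Several ligand genes lie beside another in the genome, and the neighbours had very different levels. Wnt10a (ENSMUSG00000026167.14, mm10, chromosome 1, 74791516 to 74804179, plus strand) begins 6193 bases past the end of Wnt6, on the same strand, and its mean over the 4 libraries was 26.5 FPKM against 0.553 for Wnt6. Wnt9a and Wnt3a on chromosome 11 are 16175 bases apart and are read away from each other, at means of 16.7 and 0.221 FPKM. Wnt3 and Wnt9b, also on chromosome 11 and 24328 bases apart, were both low (0.187 and 0.0113). Wnt10b on chromosome 15 neighbours Wnt1, which was listed at 0 in every library.

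The 250 bases before the annotated start of Wnt9a and Wnt3a are shown because this pair is so unequally expressed, and those of Wnt10b because it is the relative of the 1 ligand that fell; they come from RefSeq on GRCm38.p6, in gene orientation, 5′ to 3′. Of the 50 listed genes 33 had an entry there, and Wnt10a had none.
Wnt9a, chr11:59306680-59306929, plus strand: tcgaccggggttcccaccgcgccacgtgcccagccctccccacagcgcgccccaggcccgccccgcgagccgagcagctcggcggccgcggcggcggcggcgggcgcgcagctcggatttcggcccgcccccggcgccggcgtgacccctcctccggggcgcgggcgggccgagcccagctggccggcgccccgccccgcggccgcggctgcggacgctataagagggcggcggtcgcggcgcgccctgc
Wnt3a, chr11:59290752-59291001, minus strand: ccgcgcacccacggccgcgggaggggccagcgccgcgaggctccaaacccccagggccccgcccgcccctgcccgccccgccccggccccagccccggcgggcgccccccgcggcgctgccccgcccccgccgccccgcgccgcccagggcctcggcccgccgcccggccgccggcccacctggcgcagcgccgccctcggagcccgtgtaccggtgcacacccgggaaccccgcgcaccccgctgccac
Wnt10b, chr15:98778151-98778400, minus strand: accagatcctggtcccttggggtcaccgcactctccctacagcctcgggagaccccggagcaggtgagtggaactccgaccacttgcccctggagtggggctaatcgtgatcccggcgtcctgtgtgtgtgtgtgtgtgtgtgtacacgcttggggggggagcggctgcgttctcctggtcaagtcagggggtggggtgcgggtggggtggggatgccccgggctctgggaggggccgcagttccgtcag
All 3 windows are rich in G and C, at 84.4%, 87.6% and 66.8%, with 48, 41 and 14 CG pairs, against a median of 52.4% and 6 over all promoter windows of this length. The windows of Wnt9a and Wnt3a are thus alike in base composition, and a link of composition to expression was not tested. All 3 windows were searched on both strands for the Ovo core CCGTTA and for the Tcf cores CTTTGA and CTTTGT. These Tcf cores differ from each other only in the last base. None of the 3 windows held any of the cores. CCGTTA occurs in 2.18% of all windows, and in 0 of 42 windows of the listed genes.

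Before a Wnt protein leaves the cell, Porcn attaches its lipid and Wls carries it to the surface. Wls was the highest of all listed genes, at 124 and 106 FPKM in Control and 112 and 109 in Ovol2-deficient libraries, with overlapping groups (log2 fold change -0.06, adjusted p = 0.822 in limma). Porcn stood at 54.1 and 74.1 in Control and 43.5 and 51.3 in Ovol2-deficient libraries. The groups of Porcn did not overlap, but the Controls differed by more than the groups' nearest values (log2 fold change -0.42, SE 0.16, adjusted p = 0.240 in limma). Without Control 1 its log2 fold change was -0.64 and passed (adjusted p = 0.0384), and without Control 2 it was -0.19.

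Of the 9 listed Frizzled receptors 7 were tested and none passed in limma, with 2 lower at an unadjusted p under 0.05 (7.94% of all tested genes) and 0 called in the authors' deposited table. Fzd6, known for hair and tissue patterning, was the highest and gave 42.0% to 50.2% of the family's summed FPKM. It stood at 39.9 and 29.3 FPKM in Control and 26.9 and 26.7 in Ovol2-deficient libraries, with Control 1 apart from the other 3 (log2 fold change -0.34, 95% interval -0.68 to -0.003, adjusted p = 0.283). Without Control 1 the log2 fold change of Fzd6 was -0.12, and without Control 2 it was -0.56. Fzd5 stood at 11.3 and 9.45 against 6.94 and 8.65 (log2 fold change -0.37, SE 0.14, adjusted p = 0.232). Fzd7 was at 11.7 and 12.7 against 10.4 and 11.3, and Fzd1 and Fzd2 were at about 6 FPKM in each group, with log2 fold changes of -0.10 and -0.03. In 5 of the 7, Fzd1, Fzd2, Fzd5, Fzd6 and Fzd7, both Ovol2-deficient values were the lower ones, against 24% of all tested genes, though for Fzd2 by very little.

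Fzd10, a low member of the family, was higher in both mutants without passing the test. It was at 1.62 and 1.84 FPKM in Control and 2.53 and 2.001 in Ovol2-deficient libraries (log2 fold change 0.25, SE 0.15, adjusted p = 0.458 in limma). Fzd3 (0.793 and 0.818 against 0.954 and 1.14) and Fzd4 (0.245 and 0.279 against 0.418 and 0.517) were below the level tested, with both mutant values above both Controls. Fzd8 overlapped, at 1.12 and 2.23 against 1.44 and 1.42. The summed FPKM of the family was 74.1 ± 7.54 in Control and 62.5 ± 1.68 in Ovol2-deficient libraries (n = 2 each), a difference carried mostly by Fzd6.

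The 5 co-receptors and alternative receptors were all tested, and none passed in limma, with 0 at an unadjusted p under 0.05 and 0 called in the authors' deposited table. Ryk, a receptor-like kinase without catalytic activity, was the highest, at 68.2 and 66.6 FPKM in Control and 57.7 and 61.7 in Ovol2-deficient libraries (log2 fold change -0.17, SE 0.09, adjusted p = 0.384). The canonical co-receptors Lrp5 and Lrp6 went in opposite directions by small amounts. Lrp5 was at 26.7 and 28.3 against 25.4 and 23.2 (log2 fold change -0.17, interval -0.40 to 0.05), and Lrp6 at 19.2 and 19.9 against 20.04 and 22.6 (0.12, interval -0.12 to 0.35). Neither group of values overlapped, and neither difference passed (adjusted p = 0.423 and 0.626 in limma). The receptor kinase Ror1 was at 6.37 and 6.15 against 6.94 and 5.75, and Ror2, just above the level tested, at 1.41 and 0.859 against 1.19 and 0.885.

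R-spondin receptors raise Frizzled levels by holding off Znrf3 and Rnf43, the ubiquitin ligases that remove Frizzled from the surface. Lgr4 was the R-spondin receptor of these cells, at 40.5 and 26.4 FPKM in Control and 25.3 and 27.99 in Ovol2-deficient libraries. Control 1 stood apart and the other 3 were alike, so that the log2 fold change of -0.29 (SE 0.18, adjusted p = 0.487 in limma) went to 0.01 without Control 1 and to -0.59 without Control 2. Lgr5, a hair follicle stem cell marker, was listed at 0 and 0.0191 in Control and 0 and 0.0368 in mutants. Lgr6 was at 0.0455 and 0.0440 against 0.0196 and 0.165. Rnf43 was lower in both Ovol2-deficient libraries (3.84 and 3.63 against 3.12 and 3.05, log2 fold change -0.21, adjusted p = 0.438), while Znrf3 overlapped (5.28 and 5.07 against 4.82 and 5.14).

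Among the secreted antagonists Dkk3 alone reached 1 FPKM. Dkk3, a divergent member of the Dickkopf family, was at 4.15 and 4.05 FPKM in Control and 2.996 and 2.73 in Ovol2-deficient libraries. The libraries of each group lay close together and the groups were apart, with means of 4.10 ± 0.0713 and 2.86 ± 0.191 (SD, n = 2 per group). The log2 fold change of -0.40 (SE 0.12, 95% interval -0.70 to -0.11) did not pass in limma (adjusted p = 0.157), nor in the authors' deposited table (adjusted p = 0.251). With any library left out the log2 fold change of Dkk3 was -0.45 to -0.35. Sfrp1, which binds Wnt proteins directly, was at 0.548 and 0.489 against 0.407 and 0.668. Notum, which takes the lipid off Wnt proteins, reached at most 0.223 in any library, and Dkk1, Dkk2 and Wif1 stayed at or under 0.0759.

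The 3 listed genes of the destruction complex, the scaffolds Axin1 and Apc and the kinase Gsk3b, overlapped between the groups. Axin1 varied least, at 22.3 and 22.5 FPKM in Control and 22.3 and 21.96 in Ovol2-deficient libraries (log2 fold change -0.02, 95% interval -0.23 to 0.19). Gsk3b was at 24.2 and 23.5 against 24.2 and 25.1, and Apc at 11.8 and 13.03 against 12.5 and 13.97. Their intervals exclude a change as large as that of Wnt10a.

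Of the Tcf and Lef factors, Tcf7l1, known as a repressor in skin progenitors, was the highest. It stood at 8.24 and 8.02 FPKM in Control and 8.85 and 9.47 in Ovol2-deficient libraries (log2 fold change 0.15, SE 0.10, adjusted p = 0.511 in limma). Tcf7l2 was at 4.004 and 3.49 against 4.36 and 4.25 (log2 fold change 0.16, adjusted p = 0.570). Both were higher in both mutants by less than 0.25 on the log2 scale. Tcf7 overlapped, at 0.971 and 1.396 against 1.03 and 1.11. Lef1, a target as well as a mediator of the signal, was under the level tested, at 0.270 and 0.369 against 0.566 and 0.577, on a mean normalized count of 19.7 in the authors' deposited table.

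Feedback targets are the usual readout of canonical signalling, and the 4 listed in this role were low in both groups. Axin2, the most widely used of them, was at 1.99 and 2.27 FPKM in Control and 1.77 and 1.85 in Ovol2-deficient libraries. Both mutants were lower, but the log2 fold change of -0.16 (SE 0.14, 95% interval -0.49 to 0.18, adjusted p = 0.646 in limma) left both directions within its interval. Nkd2, which binds Dishevelled, was at 1.20 and 1.25 against 1.005 and 0.916 (log2 fold change -0.18, adjusted p = 0.610). Of the 32, Nkd2 alone reached the mean of 1 FPKM only through the Control group, while Fzd3 (mean 0.927) and Wnt5a (mean 0.926) fell just short of it with mutant means of 1.05 and 1.12. The genes just above it were Ror2, Nkd2 and Tcf7, with means of 1.09, 1.09 and 1.13. Nkd1 was at most 0.0818 in any library, and Sp5, a transcription factor gene activated directly by beta-catenin, was listed at 0 in all 4.

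The window before the start of Sp5 is shown because this gene, with no listed expression here, carried more Tcf cores than any other window of the listed genes that was searched. Capitals mark matches to CTTTGA or CTTTGT on either strand, in RefSeq sequence on GRCm38.p6, 5′ to 3′.
Sp5, chr2:70474673-70474922, plus strand: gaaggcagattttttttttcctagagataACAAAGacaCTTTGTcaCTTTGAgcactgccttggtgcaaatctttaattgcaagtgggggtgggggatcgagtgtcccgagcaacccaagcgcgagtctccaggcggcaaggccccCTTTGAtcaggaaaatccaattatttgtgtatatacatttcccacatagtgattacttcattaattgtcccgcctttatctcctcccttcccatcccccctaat
The 4 matches begin 221, 212, 204 and 104 bases before the start. CTTTGA occurs in 13.8% of all 32851 windows and in 8 of the 42 windows of the listed genes, and CTTTGT in 16.5% and in 9 of 42. The 250 bases before Axin2 held none of them. A match describes the letters only, and nothing about binding follows from it.

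**Figure D3:**
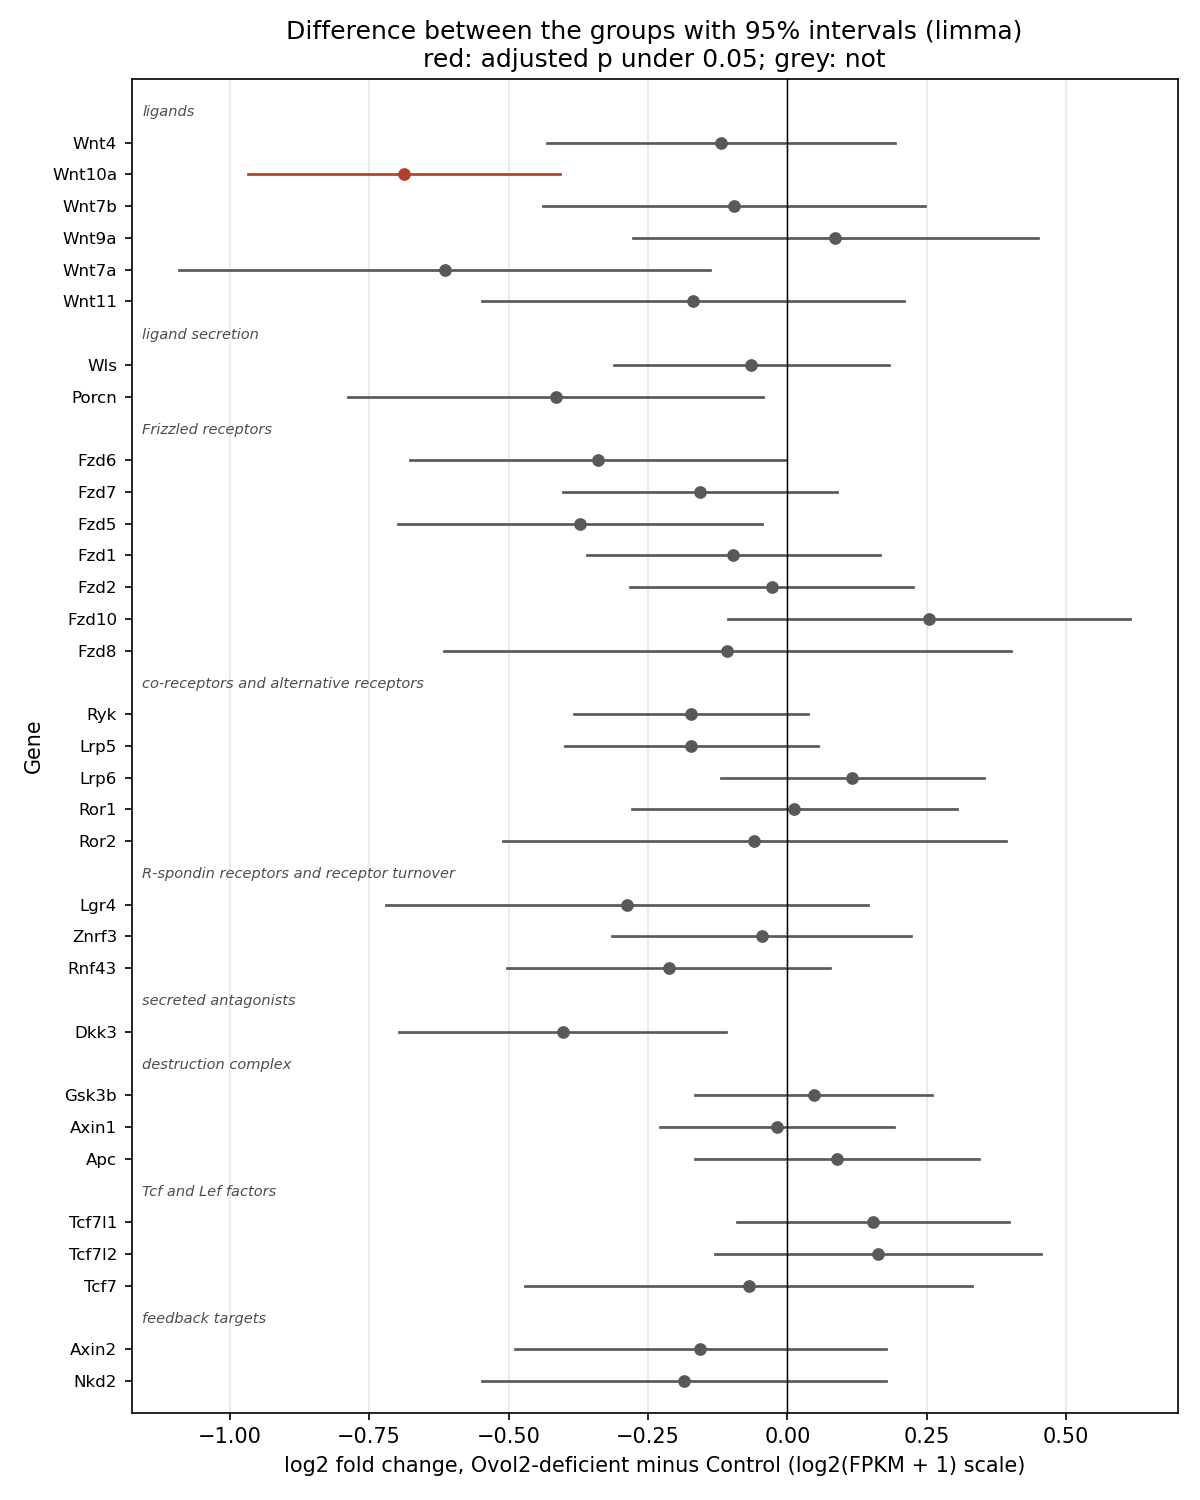
Log2 fold change of Ovol2-deficient over Control on the log2(FPKM + 1) scale (horizontal axis) for the 32 tested Wnt genes by role; dots are limma estimates and bars their 95% intervals, red where the adjusted p is under 0.05. Only the Wnt10a bar (-0.97 to -0.41) is red, and 5 other bars, of Wnt7a, Porcn, Fzd5, Fzd6 and Dkk3, end below 0 without passing the adjusted test.

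The wider pathway was taken from 7 further lists with 130 genes, of which 85 reached 1 FPKM. In limma 0 of the 85 passed, against 1.35% of all tested genes; at an unadjusted p under 0.05 there were 9 lower and 7 higher, against 7.94% and 9.49% of all tested genes. Of the 88 genes of these lists with an adjusted p in the authors' deposited table, 4 were lower and 1 was higher, against 2.1% and 2.33% of its genes. None of 7 other ligands reached 1 FPKM. The median log2 fold change of the 85 was -0.03, and groups did not overlap for 42 of them, 24 lower and 18 higher, or 49.4% against 48.1% of all tested genes.

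The lowest log2 fold changes of the 85 were those of Dact2 and Celsr1, which did not pass in limma. Dact2, a Dishevelled-binding regulator, was at 14.1 and 10.7 FPKM in Control and 7.64 and 6.83 in Ovol2-deficient libraries (log2 fold change -0.69, SE 0.14, adjusted p = 0.0672 in limma and 0.00168 in the authors' deposited table). Celsr1, an atypical cadherin of planar polarity, was at 15.6 and 18.2 against 9.42 and 11.3 (log2 fold change -0.66, SE 0.13, adjusted p = 0.0574 in limma and 3.34e-05 in the authors' deposited table). In both genes each mutant was below each Control. Both passed in limma when the filter was a mean of at least 5 FPKM, with adjusted p of 0.0468 for Dact2 and 0.0359 for Celsr1. That filter called 3.05% of all genes it tested, against 1.35% in the fit reported.

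The receptor and R-spondin list had 4 tested genes. Rspo3, an R-spondin ligand, was at 0.985 and 1.46 FPKM in Control and 2.10 and 1.95 in the mutants (log2 fold change 0.45, SE 0.17, adjusted p = 0.222 in limma). Rspo3 is also on the dermal papilla marker list of 8 genes. It is 1 of the 3 that were measured, all higher in both mutants, against 24.1% of all tested genes. Sox2, Corin and Hhip of that list were under 0.1 FPKM in every library. The glypican Gpc4 overlapped (22.4 and 17.4 against 16.2 and 17.7). Of the 5 tested antagonists Sostdc1 depended on Control 1, at 23.8 and 11.2 against 11.5 and 14.2, with a log2 fold change of -0.34 that went to 0.18 without Control 1 and to -0.85 (adjusted p = 0.0277 in limma) without Control 2. Draxin was at 0.7498 and 0.858 against 1.24 and 1.27 (log2 fold change 0.32, adjusted p = 0.358 in limma), and reached the mean of 1 FPKM only through the mutants, as did Plcb1 among the noncanonical genes.

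The groups overlapped for 14 of 21 cytoplasmic signal transducers and for 51.9% of all tested genes. Ctnnb1, the gene of beta-catenin, was at 213 and 201.2 FPKM in Control and 194.3 and 191.8 in the mutants (log2 fold change -0.10, adjusted p = 0.647 in limma). Dact3, a relative of Dact2, differed the other way from Dact2, at 1.20 and 0.959 against 1.93 and 2.24 (log2 fold change 0.57, adjusted p = 0.122). Among 16 cofactors of the nucleus the log2 fold changes ran from -0.17 for the deacetylase Hdac1 (72.9 and 65.2 FPKM against 61.05 and 61.1) to 0.21 for the corepressor Tle4 (1.73 and 1.85 against 2.40 and 2.05). Neither passed in limma (adjusted p = 0.417 and 0.520).

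Of 18 tested genes from the list of other reported beta-catenin targets, which are targets of other pathways too, 0 passed in limma, with 3 lower and 2 higher at an unadjusted p under 0.05 (all tested genes: 7.94% and 9.49%). Ccnd1, the G1 cyclin, overlapped at 146 and 179 FPKM against 164.4 and 155.2, and Myc at 167.2 and 146.1 against 148.6 and 137.7. Ctgf, a matricellular factor, was at 214.3 and 191.1 against 159.1 and 151.4 (log2 fold change -0.38, adjusted p = 0.111 in limma and 0.00867 in the authors' deposited table), and the receptor tyrosine kinase gene Met, named after its values were seen, at 21.4 and 23.1 against 16.3 and 18.03 (-0.36, 0.131 and 0.0345). Fosl1, an AP-1 factor, was at 3.14 and 3.86 against 6.75 and 4.74 (log2 fold change 0.57, adjusted p = 0.150 in limma and 0.0133 in the authors' deposited table). Of 21 noncanonical effectors 7 were lower and 7 higher in both mutants, against 24% and 24.1% of all tested genes, with Plcb1, a phospholipase C, at 1.06 and 0.841 against 1.56 and 1.596 (0.41, adjusted p = 0.242).

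**Figure D4:**
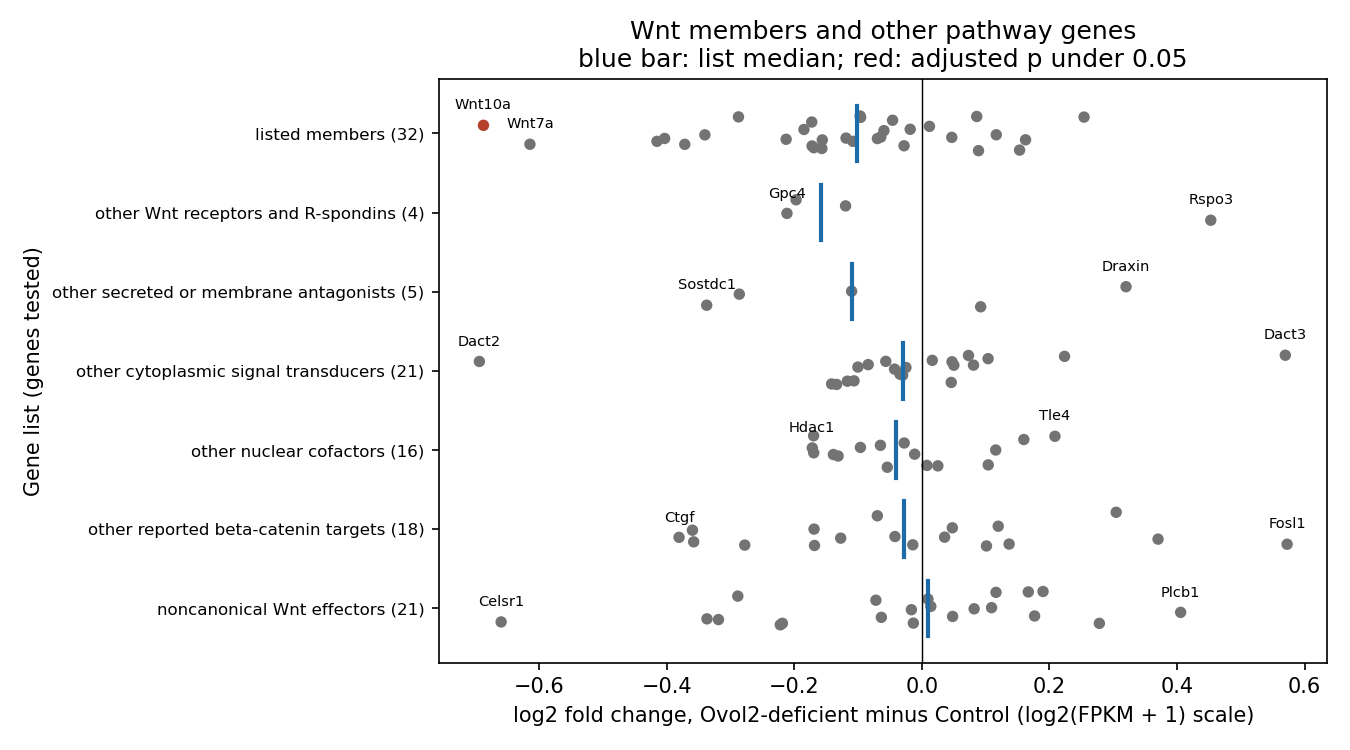
Log2 fold change of Ovol2-deficient over Control on the log2(FPKM + 1) scale (horizontal axis) for the 32 tested members and the 85 tested genes of the other pathway lists; each dot is 1 gene, spread vertically for legibility, blue bars are list medians, and red marks an adjusted p under 0.05 in limma. The medians lie between -0.16 and 0.01, and Wnt10a is the single red dot.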

How the data were processed

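The authors deposited a table of FPKM for 4 libraries and a table of their own comparison. TopHat, HTSeq and build mm10 are named per the submitters' processing notes. The annotation, the use of strand and the FPKM tool are not given in the sources used here, and without strand an overlapping antisense gene may share reads. The authors' comparison holds, per the file headers, a mean normalized signal, a log2 fold change with SE, a test score and p-values. Its log2 fold changes can differ in size from those of limma. For Ovol2 it gave -0.36 (adjusted p = 0.441 in the authors' deposited table), where limma gave -0.64.

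Rows with date-like names (27) were dropped and rows sharing a symbol summed (23970 symbols). The 11350 symbols whose mean reached 1 FPKM entered limma 3.58.1 (R 4.3.3) as log2(FPKM + 1), with group as the only term, a variance trend and Benjamini-Hochberg adjustment (threshold 0.05). The log2(FPKM + 1) scale understates changes of low genes. Any pair of libraries had exactly the same value in 5 to 13 of the 11350 tested genes, so none was a copy. With 2 libraries per group the smallest exact permutation p is 0.333, so tests rest on the model. On simulated data with 11350 genes the share of changed genes found was 32.9% at 1.5-fold, 88.9% at 2-fold and 99.4% at 4-fold, and 5.33% of calls were false; variances were drawn from limma's own prior, which favours the model. The mutant columns were assigned by group, as their names do not match the labels' code.

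The members and lists were chosen with earlier results of these data known. Values in all libraries are given for called members, for the 3 largest changes and the highest gene of each role, and for the 2 largest changes of each further list; other members and some genes of general interest (Ctnnb1, Ccnd1, Myc) were added after their values were seen. Positions are from GENCODE M21 (mm10). The alternatives were other pseudocounts (0.1 and 0.5), filters, scalings, no variance trend, the column number as a block and each library left out.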

Additional observations from a re-analysis of the deposited data

How the results depend on the processing

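The count of Wnt members called lower in limma was 1 in the fit reported, 0 with no filter on low values, under quantile normalization, under upper-quartile scaling and without the variance trend, and 0 to 3 with 1 library left out (3 without Control 1: Wnt10a, Wnt7a and Porcn; 0 without Control 2, Ovol2-deficient 1 or Ovol2-deficient 2); the cause was not tested. In these 8 fits, in the order named and with the libraries in the order Control 1 and 2 and Ovol2-deficient 1 and 2, the count over all genes was 3, 5, 36 and 6, and 466, 237, 10 and 40, against 153. No member was called higher in any of the 12 alternatives. The median log2 fold change of the members was -0.10 in the fit reported, -0.0458 with no filter, where 49 genes count, and -0.17 under quantile normalization, and the other alternatives left it within the spread of the libraries. Other pathway genes called lower were 0 in the fit reported, 2 with a filter at a mean of 5 FPKM (Dact2 and Celsr1), 3 with the replicate block (Dact2, Celsr1 and Ctgf), and 0 to 2 with 1 library left out. Over all genes tested, the filter at 5 FPKM called 3.05% and the replicate block 4.56%, against 1.35% in the fit reported. With 1 library left out, the remaining one of its group is assumed to vary like the others.

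With 1 library left out, the sign changed for Wnt4 (-0.31 to 0.0729), Wnt7b (-0.30 to 0.11), Wnt9a (-0.11 to 0.28), Fzd8 (-0.41 to 0.20), Ror1 (-0.11 to 0.13), Ror2 (-0.25 to 0.0499), Lgr4 (-0.59 to 0.0106), Wls (-0.18 to 0.0474), Tcf7 (-0.21 to 0.0713) and Sostdc1 (-0.85 to 0.18), none of which was called in the fit reported. Ror1 also stood at -0.0203 under quantile normalization. Taking the number in the column names as a replicate block raised the count over all genes from 153 to 518 and left 1 member called, Wnt10a (adjusted p = 0.0255 in limma). Deviations of same-numbered libraries correlated at r = 0.220 across genes, but with 2 pairs and no label that ties the numbers together, they share only a number. Summed levels of ligands, Frizzled receptors and antagonists moved by less than 1 SD under upper-quartile scaling. Low members such as Wnt3 and Lef1 rest on few reads, and they were left untested.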
